A study of Homo sapiens with 18 samples.

Results

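The comparison sets the control cells of the lung cancer line NCIH838 against the control cells of the colon cancer line DLD1, gene by gene, and asks how the lines differ where no gene was targeted. Its members are the genes whose TPM, averaged across the 3 NCIH838 CTRL and the 3 DLD1 CTRL libraries, was 1 or more, which were 16982 of the 27166 genes deposited (12494 protein-coding and 4488 others). TPM is a level corrected for gene length and library depth, so levels can be set side by side between genes. The NCIH838 CTRL group is labelled lung adenocarcinoma and the DLD1 CTRL group colon adenocarcinoma. Both carried lentiCRISPR v2, a lentiviral vector for Cas9 and its guide RNA, with a non-targeting guide, and both went through 5 days of puromycin. Cells grew attached to plastic in DMEM with serum, and total RNA was taken on day 10 after infection from NCIH838 and on day 8 from DLD1. Collection day and cell line therefore cannot be told apart in any value given here. Each tissue is represented by 1 cell line, and the design text calls the 3 libraries of a group biological triplicates, so errors describe the spread between samples of 1 line and not between tumours. The study holds 18 libraries in all, with the liver line HUH7 and, in every line, a KDSR KO group, whose cells carried a guide against the sphingolipid enzyme KDSR. The KDSR KO libraries of NCIH838 and DLD1 share no library with the controls and served as a second measurement of the line difference. That measurement was made in cells where KDSR was targeted, and collection day goes with the line there too. It is therefore not an exact repeat of the control comparison.

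Epithelial cells of the colon and of the lung are held in their states by different transcription factors. In the intestine, CDX factors and HNF4A switch on brush border, mucus and adhesion genes, and Wnt signals through beta-catenin keep stem and progenitor cells dividing. In the lung, NKX2-1 directs the surfactant and secretory genes of the alveoli and airways, while FOXJ1 directs motile cilia. Both tissues share cadherin, claudin and keratin genes that hold an epithelial sheet together, and carcinoma cells that lose these genes often gain vimentin, ZEB factors and matrix genes of mesenchymal cells. HOX genes, arranged in the A, B, C and D clusters, record the position of a cell's origin along the body axis. KEAP1 marks the transcription factor NRF2 for degradation, and NRF2 in turn drives genes of glutathione, quinone and iron handling. DLD1 is widely known as a Wnt-active line with a mismatch repair defect, and NCIH838 as a line with changes in KEAP1 and SMARCA4. Genotypes were not measured here.

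The 6 libraries held 17039634 to 20339678 recovered reads. Mitochondrially encoded genes took 11.9% to 15.2% of TPM in NCIH838 CTRL and 6.32% to 8.96% in DLD1 CTRL, so all other genes of NCIH838 share a smaller remainder. Library 1 of NCIH838 CTRL stood apart in a small way: all 7 genes above 1000 TPM in HUH7 and under 0.5 TPM on average in the other 5 libraries were highest there, at 0.0405% to 0.0744% of their HUH7 level. The counts of calls without that library are in the closing section, and none moved by more than 1.5 times. Genes were tested with limma on log2(TPM + 1), and p-values were adjusted by Benjamini-Hochberg over the 16982 genes. At an adjusted p under 0.05, 13302 genes (78.3%) differed, 6356 higher (37.4%) and 6946 lower (40.9%) in NCIH838, and in 80.1% of genes the ranges of the lines did not overlap. Because most genes differed by this rule, a gene is called here when limma's treat test rejects a difference of 2-fold or less, again at an adjusted p under 0.05. This stricter rule called 4693 genes (27.6%), 2536 higher (14.9%) and 2157 lower (12.7%) in NCIH838, and these shares are the background for every count of list members below. Of the 4693 genes, 4683 differed in the same direction between the KDSR KO libraries of the lines, 3873 were called there in the same direction and 0 in the opposite one. Between those libraries 12904 genes (76%) differed at an adjusted p under 0.05, 35.7% higher and 40.3% lower in NCIH838, and 4375 (25.8%) were called, 13.7% higher and 12% lower. The median log2 difference over all 16982 genes was -0.05. Adding 1 to TPM pulls the log2 differences of genes near 0 toward 0, so they understate the fold. In lists, a member is tested if it belongs to the 16982 genes, and a list holding many genes that are high in a single line had to show differences. A count is therefore a description of the list and not a test of it.

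**Figure D1:**
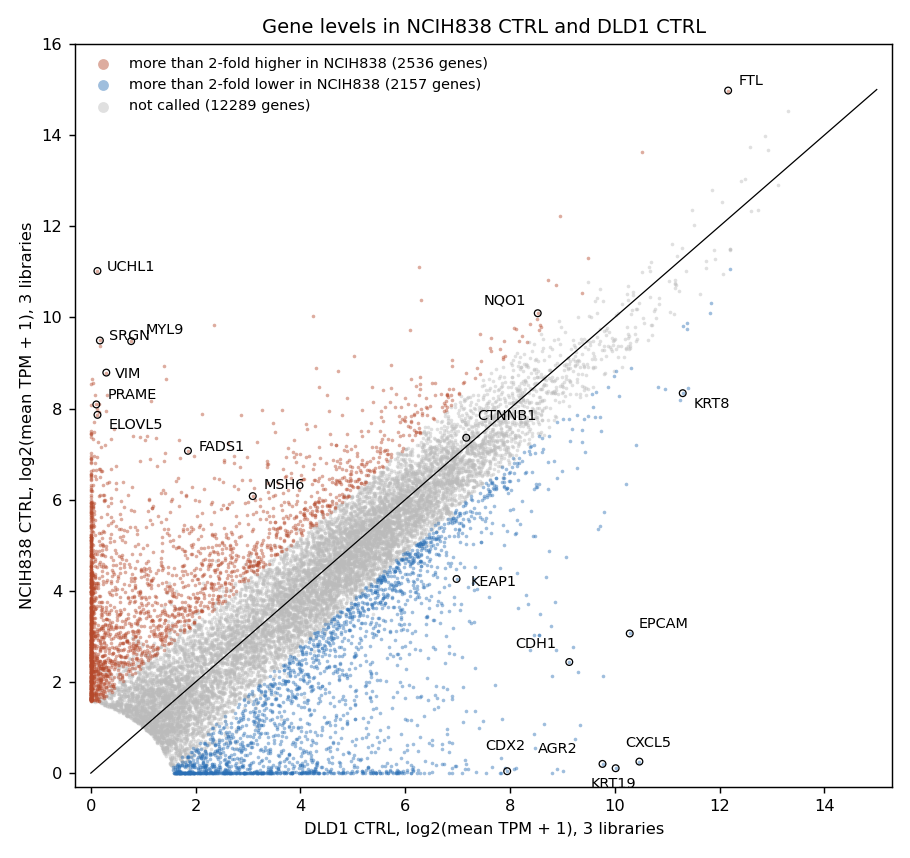
Mean level of each of the 16982 genes in NCIH838 CTRL (vertical axis) and DLD1 CTRL (horizontal axis), both as log2(mean TPM + 1) over 3 libraries, with the 2536 genes called higher in red, the 2157 called lower in blue and the others in grey. Genes that are high in a single line lie along the axes, with UCHL1 at 2074 TPM in NCIH838 and CXCL5 at 1418 TPM in DLD1 among those farthest from the diagonal.

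The largest differences ran in both directions and reached the limit of detection in the other line. UCHL1, a neuronal deubiquitinase, was at 1989.7, 2112 and 2119 TPM in the NCIH838 CTRL libraries, against 0, 0.172 and 0.102 TPM in DLD1 CTRL. Its log2 difference was 10.90 ± 0.07 (SE; limma treat, adjusted p = 7.78e-10), and the lines lay far apart in every library. SRGN, the proteoglycan serglycin of secretory granules, averaged 719.9 ± 13.6 TPM in NCIH838 and 0.127 ± 0.22 TPM in DLD1 (mean ± SD, n = 3 each, as for all such pairs below). BASP1, a membrane protein of growing nerve endings, was at 660.4 ± 32.2 and MSN, the actin linker moesin, at 399 ± 9.12 TPM in NCIH838, against 0.135 ± 0.163 and 0.0109 ± 0.0189 TPM in DLD1. NNMT, which methylates nicotinamide, averaged 313 ± 6.98 TPM in NCIH838 and 0.24 ± 0.0685 TPM in DLD1. In the other direction, the chemokine gene CXCL5 was at 0.284, 0.0726 and 0.218 TPM in NCIH838 CTRL, against 1434, 1520.5 and 1299 TPM in DLD1 CTRL. Its log2 difference was -10.22 ± 0.09 (limma treat, adjusted p = 9.86e-10), and the ranges of the lines did not overlap. AGR2, a disulfide isomerase that helps fold mucins, averaged 0.15 ± 0.163 TPM in NCIH838 and 869.7 ± 38.4 TPM in DLD1. MAL2, which acts in apical transport, averaged 0.0702 ± 0.122 TPM in NCIH838 and 475 ± 49.5 TPM in DLD1. S100A14, an epithelial calcium-binding protein, was at 0.672 ± 0.549 TPM in NCIH838 and 601 ± 2.87 TPM in DLD1, and FOXQ1, a forkhead factor and Wnt target, at 0.0787 ± 0.0782 TPM in NCIH838 and 275 ± 18.9 TPM in DLD1. The 20 largest differences upward among called genes of at least 20 TPM also took in MYL9, CTAG2, MAGEC2, VIM, CT45A1, PRAME, ELOVL5, MAGEA3, MAGEB2 and SPARC, described with their groups below, and PLTP, PEG10, FSTL1, RTL8C and RTL8A. The 20 largest downward also took in KRT19, EREG, ASCL2, ST14, MT1E, CLDN7, CDX2, RAB25, CDH17, BMP4, AXIN2, FOXA1 and TSPAN8, likewise described below, and LAD1 and SLC7A8. In all, 361 genes (192 coding) were at 5 TPM or more in NCIH838 CTRL with no read in DLD1 CTRL, and 161 genes (104 coding) were at 5 TPM or more in DLD1 CTRL with no read in NCIH838 CTRL.

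Genes of colon and intestine identity were lower in NCIH838 almost throughout. Of 21 tested members, 20 were called lower and 1 higher, and their median log2 difference was -3.96. CDX2, the homeobox factor that sets intestinal identity (chromosome 13, 27962137 to 27971139, minus strand, hg38), was at 0.0438, 0.0447 and 0 TPM in NCIH838 CTRL, against 231, 235 and 271 TPM in DLD1 CTRL (log2 difference -7.90 ± 0.08; limma treat, adjusted p = 1.31e-09). The lines did not overlap for this gene, and a total of 2 reads over 3 libraries was found in NCIH838. CDH17, the intestinal cadherin, had 0 reads in NCIH838 and 224, 233 and 216 TPM in DLD1, at least 4783-fold lower in NCIH838 against a floor of 3 reads over the 3 libraries. TSPAN8, a tetraspanin of gut epithelium, likewise had no read in NCIH838 and averaged 186 ± 15.9 TPM in DLD1. HNF4A, a nuclear receptor of gut and liver epithelium, averaged 0.1 ± 0.0429 TPM in NCIH838 and 32.8 ± 1.36 TPM in DLD1, 328-fold lower. The keratin KRT20 averaged 0.0326 ± 0.0565 TPM in NCIH838 and 44.2 ± 1.83 TPM in DLD1, and the actin-bundling brush border protein VIL1 was at 0.0174 ± 0.0301 TPM in NCIH838 and 16.1 ± 0.631 TPM in DLD1. LGALS4 and CEACAM5 were low in DLD1 itself, at 3.47 and 2.31 TPM, against 0.277 and 0 TPM in NCIH838. CDX1, MUC2 and GPA33 fell under the filter, with 1.25, 0.2 and 0.569 TPM in DLD1 against 0, 0.00475 and 0 TPM in NCIH838, so the DLD1 label rests on part of its marker list. The member called higher was USH1C, a scaffold of brush border and inner ear, at 3.57, 3.12 and 2.78 TPM in NCIH838 and 0.0397, 0.24 and 0.237 TPM in DLD1; between the KDSR KO libraries its log2 difference was 0.36 and it was not called. Mucins and trefoil factors, the mucus genes, showed 6 of 7 tested members called lower and 1 higher. The trefoil peptide gene TFF1 had no read in NCIH838 and averaged 56.2 ± 6.22 TPM in DLD1, while the membrane mucin MUC1 averaged 39.8 ± 1.92 TPM in NCIH838 and 2.57 ± 0.163 TPM in DLD1.

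Several defining genes of lung epithelium were at or near 0 in NCIH838, and others were not. NKX2-1, the factor that sets lung identity, was at 0, 0 and 0.0582 TPM in NCIH838 CTRL, and at 0.86, 0.557 and 0.883 TPM in DLD1 CTRL. SFTPA2, SFTPB and SFTPC, surfactant proteins of alveolar cells, averaged 0, 0.0299 and 0.134 TPM in NCIH838, against 0.458, 0.0476 and 0 TPM in DLD1. The alveolar transporter SLC34A2 averaged 0.0726 TPM in NCIH838 and 0.0616 TPM in DLD1, and the protease NAPSA 0.902 TPM in NCIH838 and 0.432 TPM in DLD1. All of these genes fell under the filter, so NKX2-1 and these surfactant and alveolar genes were absent or close to absent in the line labelled lung, while ABCA3 and AGER, also genes of alveolar cells, were present. Of 8 members of the lung list that were tested, 4 were called higher and 2 lower. FOXJ1, the master regulator of motile cilia, was at 21.9, 25.9 and 21 TPM in NCIH838 CTRL, against 0.0736, 0.0742 and 0.176 TPM in DLD1 CTRL (212-fold higher; log2 difference 4.43 ± 0.11; limma treat, adjusted p = 1e-07). Its fold rests on 4 reads in DLD1 CTRL and is approximate. ABCA3, the lipid transporter of lamellar bodies, averaged 30.7 ± 3.11 TPM in NCIH838 and 1.97 ± 0.0991 TPM in DLD1 (15.6-fold higher), and CAV1, the main protein of caveolae, 194 ± 11.8 TPM in NCIH838 and 18.3 ± 1.96 TPM in DLD1 (10.6-fold higher). AGER, a receptor of flat alveolar cells, was at 9.61 TPM in NCIH838 and 5.17 TPM in DLD1 and was not called. The airway mucin MUC5AC had no read in NCIH838 and averaged 10.2 ± 1.58 TPM in DLD1. Of 12 measured neuroendocrine markers, 5 passed the filter and 5 were called higher, led by UCHL1. CHGB, a granin of secretory granules, was at 8.78 ± 0.794 TPM in NCIH838 with no read in DLD1 CTRL. DLL3, a Notch ligand, was at 8.42 ± 0.96 TPM in NCIH838 and 0.168 ± 0.179 TPM in DLD1. UCHL1, CHGB and DLL3 passed the filter through NCIH838 alone, so the filter itself favoured their direction. The 7 markers under the filter reached at most 2.17 TPM in any library of the comparison. UCHL1 was also high in the liver line, at 964 TPM in HUH7 CTRL. Of 14 measured genes on the list of blood, endothelial and fibroblast markers, 4 passed the filter. PTPRC, the pan-leukocyte gene, was under it, at 0 TPM in NCIH838 and 0.00712 TPM in DLD1. So were CDH5 of endothelium (0.543 TPM in NCIH838 and 0.0107 TPM in DLD1) and DCN of fibroblasts (0.0142 TPM in NCIH838 and 0.0101 TPM in DLD1). The matrix proteoglycan LUM, another fibroblast marker of the list, was called higher, at 10.5 ± 0.856 TPM in NCIH838 and 0.0215 ± 0.0373 TPM in DLD1. The lipopolysaccharide co-receptor CD14 was also called higher, at 22.1 ± 3.06 TPM in NCIH838 and 5.11 ± 0.632 TPM in DLD1. The claudin CLDN5 was called lower, at 0.0706 ± 0.0803 TPM in NCIH838 and 3.11 ± 0.291 TPM in DLD1. Over the 14 measured genes of that list the summed level was 34.6 to 41 TPM in NCIH838 and 9.96 to 11.1 TPM in DLD1, and its part in the results above was not tested.

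**Figure D2:**
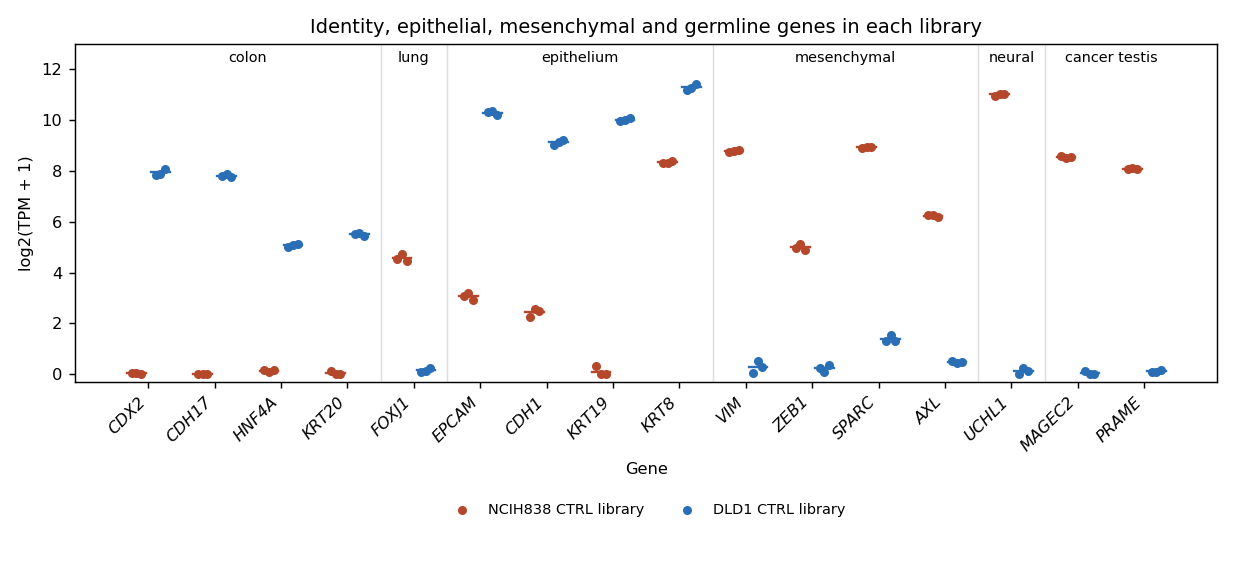
Level of 16 genes in each library as log2(TPM + 1), NCIH838 CTRL in red and DLD1 CTRL in blue, with a line at the mean of 3 libraries. The lines do not overlap for any of these 16 selected genes, nor for 80.1% of all 16982 genes. KRT8 is the gene for which both lines are high, at 322 TPM in NCIH838 and 2515 TPM in DLD1.

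Genes of the epithelial sheet were largely lower in NCIH838. Among 32 tested junction genes, 22 were called lower and 1 higher (median log2 difference -2.89). EPCAM, an epithelial adhesion molecule, was at 7.45, 8.05 and 6.58 TPM in NCIH838 CTRL, against 1273, 1303 and 1166 TPM in DLD1 CTRL. CDH1, E-cadherin of adherens junctions (chromosome 16, 68737225 to 68835548, plus strand, hg38), was at 3.77, 4.92 and 4.57 TPM in NCIH838 CTRL, against 524, 561 and 595 TPM in DLD1 CTRL. Both were present in every NCIH838 library yet far under the range of DLD1, 169-fold and 127-fold lower (limma treat, adjusted p = 1.99e-09 and 4.43e-09). The membrane protease ST14 averaged 1.06 ± 0.178 TPM in NCIH838 and 645 ± 73.5 TPM in DLD1, and its inhibitor SPINT1 8.33 ± 1.97 TPM in NCIH838 and 442 ± 40.6 TPM in DLD1. CLDN7, a tight junction claudin, averaged 0.467 ± 0.229 TPM in NCIH838 and 357 ± 12.7 TPM in DLD1, while RAB25, an epithelial trafficking GTPase, had no read in NCIH838 and averaged 227 ± 12.4 TPM in DLD1. The member called higher was another claudin, CLDN1, at 67.7, 61.6 and 63.9 TPM in NCIH838 and 10.1, 8.29 and 10.2 TPM in DLD1 (6.77-fold higher). Desmosome and tight junction scaffolds such as DSP (114 TPM in NCIH838 and 148 TPM in DLD1) and TJP1 (54.2 TPM in NCIH838 and 84.2 TPM in DLD1) were not called.

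The keratins split between the lines. KRT8 and KRT18, the pair of simple epithelia, were at 322 ± 10.4 and 350.0 ± 18.7 TPM in NCIH838, against 2515 ± 195 and 2698 ± 81.6 TPM in DLD1, 7.8-fold and 7.71-fold lower. Their annotated spans overlap on opposite strands, so the division of reads between them is uncertain. KRT19 was at 0.232, 0 and 0 TPM in NCIH838 CTRL, against 987, 1040.4 and 1079 TPM in DLD1 CTRL, a log2 difference of -9.92 ± 0.09 (limma treat, adjusted p = 1.08e-09). KRT7, a keratin of lung and ductal epithelia, and KRT17, a keratin of basal and wounded epithelium, were called higher, at 38.6 ± 1.62 and 71.6 ± 2.08 TPM in NCIH838, against 2.76 ± 0.54 and 0.0209 ± 0.0361 TPM in DLD1. In total 4 of 10 tested keratins were called lower and 2 higher.

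Transcription factors of endoderm and epithelium were lower in NCIH838 for 13 of 16 tested members, with 0 called higher. FOXA1, a pioneer factor of endodermal organs including lung and gut, was at 1.45, 0.926 and 0.926 TPM in NCIH838 CTRL, against 390.4, 407 and 408 TPM in DLD1 CTRL (365-fold lower). EHF, an ETS factor of epithelia, averaged 0.0695 ± 0.0238 TPM in NCIH838 and 145 ± 4.68 TPM in DLD1. GRHL2, which activates CDH1 and other junction genes, averaged 0.0101 ± 0.0176 TPM in NCIH838 and 55.6 ± 0.567 TPM in DLD1. ESRP2 and ESRP1, splicing regulators of epithelial exons, were at 1.18 and 0.0249 TPM in NCIH838, against 136 and 18.4 TPM in DLD1. SOX9, a factor of crypt and distal lung progenitors, averaged 7.11 ± 0.36 TPM in NCIH838 and 374 ± 11.3 TPM in DLD1, and GATA6 12.4 ± 0.412 TPM in NCIH838 and 101 ± 5.7 TPM in DLD1. KLF5 was not called and was high in both lines (215 ± 4.05 TPM in NCIH838 and 338 ± 8.16 TPM in DLD1).

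Mesenchymal and cytoskeletal genes went the opposite way, with 18 of 23 tested members called higher in NCIH838 and 1 lower (median log2 difference 3.43). VIM, the intermediate filament vimentin (chromosome 10, 17228259 to 17237593, plus strand, hg38), was at 433, 440.1 and 451 TPM in NCIH838 CTRL, against 0.0377, 0.418 and 0.226 TPM in DLD1 CTRL (1943-fold higher; log2 difference 8.51 ± 0.11; limma treat, adjusted p = 3.22e-09). ZEB1, a repressor of CDH1, was at 30.4, 33.8 and 28.7 TPM in NCIH838 CTRL, against 0.18, 0.068 and 0.269 TPM in DLD1 CTRL. The related repressors ZEB2 and TWIST2 averaged 5.53 ± 0.371 and 44.5 ± 6.25 TPM in NCIH838, with 1 read and 0 reads in DLD1 CTRL. SNAI1, which also represses CDH1, averaged 40.3 ± 2.37 TPM in NCIH838 and 10.4 ± 2.11 TPM in DLD1. MYL9, a myosin light chain of contractile cells, averaged 713 ± 26.4 TPM in NCIH838 and 0.705 ± 0.248 TPM in DLD1, and SPARC, a matrix glycoprotein, 486 ± 7.2 TPM in NCIH838 and 1.63 ± 0.239 TPM in DLD1. The receptor AXL, the collagen cross-linker LOXL2 and the tropomyosin TPM2 were at 74.2, 107 and 288 TPM in NCIH838, against 0.388, 0.387 and 1.22 TPM in DLD1. N-cadherin CDH2, at 2.87 ± 0.415 TPM in NCIH838 and 1.14 ± 0.217 TPM in DLD1, was not called, and fibronectin FN1 was called higher, at 10 ± 0.819 TPM in NCIH838 and 2.58 ± 0.213 TPM in DLD1. The member called lower was ACTA2, smooth muscle actin, at 0.268 ± 0.2 TPM in NCIH838 and 3.54 ± 0.299 TPM in DLD1.

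Matrix and adhesion genes were mixed by role. Proteases and inhibitors of the matrix and plasminogen systems had 9 of 19 tested members called higher and 1 lower. PLAU, the urokinase protease, averaged 87.9 ± 2 TPM in NCIH838 and 4.08 ± 0.318 TPM in DLD1. Its receptor PLAUR averaged 102 ± 6.59 TPM in NCIH838 and 11.7 ± 0.556 TPM in DLD1, and the membrane collagenase MMP14 was at 179 ± 8.7 TPM in NCIH838 and 10.4 ± 1.62 TPM in DLD1. Integrins and laminins were divided, 7 of 24 called higher and 7 lower. The fibronectin receptor chains ITGA5 and ITGB1 were called higher, at 87.8 and 748 TPM in NCIH838, against 19.5 and 197 TPM in DLD1. ITGB4, the hemidesmosome integrin, and ITGB6, an epithelial integrin, were called lower, at 13.5 and 0.0647 TPM in NCIH838, against 122 and 6.84 TPM in DLD1. For targets of the mechanosensitive factors YAP and TEAD, 7 of 27 were called higher and 3 lower. CYR61, a secreted matricellular protein, was at 1351, 1275 and 1367 TPM in NCIH838 CTRL, against 73.6, 79.2 and 82.3 TPM in DLD1 CTRL (17-fold higher). CTGF, of the same family, averaged 113 ± 10 TPM in NCIH838 and 14.1 ± 0.819 TPM in DLD1. The coactivator YAP1 itself was not called, at 95 ± 0.834 TPM in NCIH838 and 130.1 ± 6.67 TPM in DLD1, whereas its relative WWTR1 (TAZ) was at 66.9 ± 2.37 TPM in NCIH838 and 2.5 ± 0.0906 TPM in DLD1 (26.7-fold higher).

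HOX genes divided by cluster. Of 11 tested HOXA genes, 8 were called lower in NCIH838 and 0 higher, and of 9 tested HOXB genes, 8 were called lower and 0 higher. In the HOXC cluster 6 of 7 were called higher and 0 lower, and in the HOXD cluster 3 of 5 higher and 0 lower. Summed means were 68.5 TPM in NCIH838 and 530.2 TPM in DLD1 for HOXA, 75.4 TPM in NCIH838 and 1099 TPM in DLD1 for HOXB, 122 TPM in NCIH838 and 8.55 TPM in DLD1 for HOXC, and 50.5 TPM in NCIH838 and 15.5 TPM in DLD1 for HOXD. HOXB9 was at 4.69, 6.21 and 5.57 TPM in NCIH838 CTRL, against 454, 473 and 480.0 TPM in DLD1 CTRL, the highest HOX gene of either line. HOXA9 averaged 0.665 ± 0.00803 TPM in NCIH838 and 89.7 ± 5.02 TPM in DLD1, and HOXA13, a factor of the hindgut, 4.85 ± 0.356 TPM in NCIH838 and 134 ± 10.3 TPM in DLD1. HOXC10 was at 41.7, 50.1 and 42.1 TPM in NCIH838 CTRL, against 1.25, 1.43 and 1.9 TPM in DLD1 CTRL. HOXC13 had no read in DLD1 CTRL and averaged 19.7 ± 1.8 TPM in NCIH838, and HOXD10 averaged 27.4 ± 2.08 TPM in NCIH838 and 3.24 ± 0.42 TPM in DLD1. Within clusters the exceptions were HOXA4 and HOXB2, which had higher means in NCIH838 (7.86 and 7.5 TPM, against 3.02 and 2.56 TPM in DLD1), and HOXD13, with a lower mean in NCIH838 (0.273 TPM, against 2.37 TPM in DLD1). None of these 3 was called, but both HOXB2 and HOXD13 lay close to the threshold. HOXB2 was called in 7 of the 17 alternative settings (limma treat, adjusted p = 0.00407 to 0.0398), and HOXD13 in 4 of the 17 (0.00139 to 0.0426), both of them without DLD1 library 1 (log2 differences 1.37 and -1.55; adjusted p = 0.0258 and 0.0426).

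**Figure D3:**
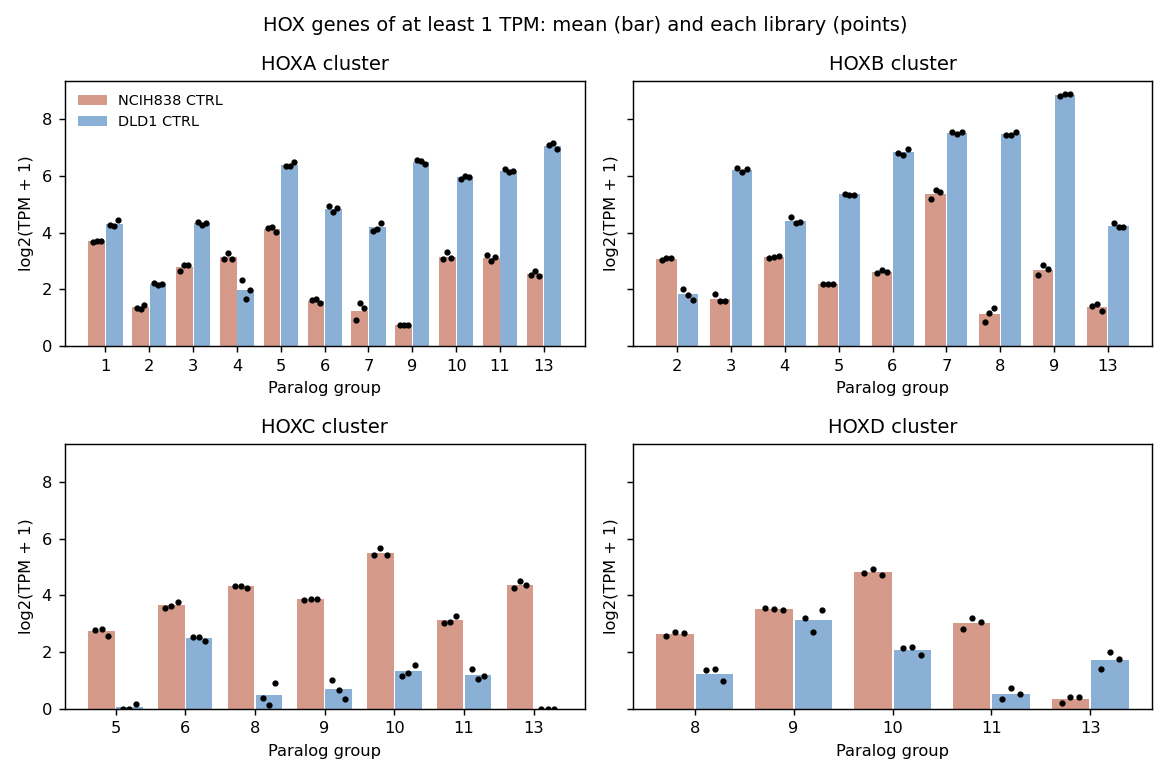
Level of the 32 tested HOX genes by cluster and paralog group as log2(TPM + 1), with bars at the mean of 3 libraries and a point for each library, NCIH838 CTRL left of DLD1 CTRL. DLD1 is the taller bar through most of HOXA and HOXB, with HOXB9 at 469 TPM against 5.49 TPM in NCIH838, and NCIH838 is the taller bar through HOXC.

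Wnt targets and intestinal stem cell genes were called lower in NCIH838 for 15 of 20 tested members and higher for 0. ASCL2, the stem cell factor of intestinal crypts, had no read in NCIH838 CTRL and was at 415, 429.9 and 482 TPM in DLD1 CTRL. AXIN2, a feedback inhibitor induced by beta-catenin, was at 1.14, 0.706 and 0.635 TPM in NCIH838 CTRL, against 338, 345 and 373 TPM in DLD1 CTRL (426-fold lower; log2 difference -7.60 ± 0.11; limma treat, adjusted p = 4.8e-09). LGR5, the R-spondin receptor of stem cells, averaged 0.0232 ± 0.0201 TPM in NCIH838 and 58 ± 0.439 TPM in DLD1. LEF1, a DNA-binding partner of beta-catenin, had no read in NCIH838 and averaged 81.1 ± 2.98 TPM in DLD1, while the related TCF7 was at 3.72 ± 0.377 TPM in NCIH838 and 20.8 ± 1.37 TPM in DLD1. The ubiquitin ligases RNF43 and ZNRF3, which remove Wnt receptors, averaged 3.5 ± 0.517 and 12.9 ± 0.316 TPM in NCIH838, against 39.5 ± 1.19 and 46.1 ± 2.81 TPM in DLD1. CTNNB1, beta-catenin itself, was not called, at 165, 161 and 164 TPM in NCIH838 CTRL and 138, 149 and 141 TPM in DLD1 CTRL, and the ranges did not overlap although the log2 difference was 0.19 ± 0.05.

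Ligands of the EGF receptor were far apart between the lines, while the receptor gene was not called. EREG, the ligand epiregulin, was at 0, 0.0645 and 0.0322 TPM in NCIH838 CTRL, against 561, 574 and 421 TPM in DLD1 CTRL. Its neighbour on chromosome 4, the amphiregulin gene AREG, was at 6.46, 5.59 and 5.48 TPM in NCIH838 CTRL, against 598, 619 and 556 TPM in DLD1 CTRL. Another ligand, TGFA, averaged 2.05 ± 0.186 TPM in NCIH838 and 104 ± 1.45 TPM in DLD1, whereas HBEGF was called higher, at 17.9 ± 1.04 TPM in NCIH838 and 5.45 ± 0.875 TPM in DLD1. EGFR was not called, at 24.4 ± 1.59 TPM in NCIH838 and 34.9 ± 1.38 TPM in DLD1, and its partner ERBB3 was 12.9-fold lower, at 5.14 ± 0.549 TPM in NCIH838 and 66.1 ± 1.7 TPM in DLD1. In all, 5 of 9 tested genes of this family were called lower and 2 higher. Among 26 other receptor tyrosine kinases and ligands, 7 were called higher and 13 lower. IGF1R, the receptor of insulin-like growth factors, averaged 140.4 ± 9.37 TPM in NCIH838 and 12.6 ± 0.719 TPM in DLD1 (11.2-fold higher), and the collagen receptor DDR2 40.3 ± 1.72 TPM in NCIH838 and 0.483 ± 0.13 TPM in DLD1 (83.5-fold higher). Its epithelial relative DDR1 was at 25.7 ± 1.29 TPM in NCIH838 and 119 ± 6.04 TPM in DLD1 (4.64-fold lower). KIT, the receptor of stem cell factor, had no read in NCIH838 and averaged 55.8 ± 4.37 TPM in DLD1. In the TGF-beta and BMP pathway 5 of 27 were called higher and 8 lower. The ligand BMP4 was at 2.81, 3.29 and 4.13 TPM in NCIH838 CTRL, against 839, 851 and 922 TPM in DLD1 CTRL (255-fold lower), and the BMP target ID2 averaged 12.6 ± 1.46 TPM in NCIH838 and 466 ± 13.9 TPM in DLD1. NOG, the secreted BMP inhibitor noggin, had no read in DLD1 CTRL and averaged 11.1 ± 1.08 TPM in NCIH838. The ligand GDF15, which cell stress also induces, averaged 3.63 ± 0.917 TPM in NCIH838 and 629 ± 64 TPM in DLD1.

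KEAP1 was lower in NCIH838, and its ligase target NFE2L2, the gene of NRF2, was not called. KEAP1 (chromosome 19, 10486120 to 10503741, minus strand, hg38) was at 18.5, 16.2 and 19.7 TPM in NCIH838 CTRL, against 115, 117 and 144 TPM in DLD1 CTRL (6.9-fold lower; log2 difference -2.72 ± 0.11; limma treat, adjusted p = 4.53e-06). NFE2L2 was at 117, 110.3 and 118 TPM in NCIH838 CTRL and 119, 124 and 119.8 TPM in DLD1 CTRL, a log2 difference of -0.07 ± 0.05 whose sign changed with the scaling, and the partner MAFK averaged 83.8 ± 6.02 TPM in NCIH838 and 19.2 ± 0.172 TPM in DLD1 (4.36-fold higher). Of 36 tested NRF2 targets, 11 were called higher, 7 lower and 18 not called; the shares of 30.6% higher and 19.4% lower stood against 14.9% and 12.7% of all genes. FTL, the light chain of the iron store ferritin, was at 29847, 33917 and 33042 TPM in NCIH838 CTRL, against 4397, 4629 and 4739 TPM in DLD1 CTRL (7.03-fold higher). GCLM, the modifier subunit of glutathione synthesis, averaged 316 ± 14.1 TPM in NCIH838 and 55.7 ± 5.05 TPM in DLD1 (5.68-fold higher), whereas the catalytic subunit GCLC was at 25.1 ± 0.148 TPM in NCIH838 and 33.7 ± 2.08 TPM in DLD1 and was not called. NQO1, a quinone reductase, averaged 1090.4 ± 20.9 TPM in NCIH838 and 369 ± 26.5 TPM in DLD1 (2.96-fold higher), and was not called between the KDSR KO libraries (log2 difference 1.01). PIR, an iron-binding nuclear protein, averaged 172 ± 6.56 TPM in NCIH838 and 22.6 ± 2.17 TPM in DLD1 (7.63-fold higher), TRIM16L 312 ± 6.03 TPM in NCIH838 and 21.9 ± 1.27 TPM in DLD1, and the drug efflux pump ABCC2 41.4 ± 1.09 TPM in NCIH838 and 0.678 ± 0.0466 TPM in DLD1. TRIM16L is a near copy of part of TRIM16, so its reads may be divided. Thioredoxin reductase TXNRD1, at 531 ± 2.59 TPM in NCIH838 and 267 ± 12.6 TPM in DLD1, was not called, though it was under median ratio scaling (log2 difference 1.13; limma treat, adjusted p = 0.0264). Members called lower included the aldehyde dehydrogenase ALDH3A1 (0.141 ± 0.141 TPM in NCIH838 and 55.4 ± 2.64 TPM in DLD1) and the glucuronic acid enzyme UGDH (45.9 ± 0.983 TPM in NCIH838 and 281 ± 16.2 TPM in DLD1). TXNIP, a thioredoxin inhibitor that responds to glucose, was at 0.598, 0.915 and 0.915 TPM in NCIH838 CTRL, against 111, 123 and 96.6 TPM in DLD1 CTRL (136-fold lower). Whether NRF2 raises or lowers each listed gene in these lines was not tested. The median log2 difference of the list was 0.57 in the controls and -0.04 between the KDSR KO libraries of the lines.

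The antioxidant response element is the DNA word that NRF2 and small MAF proteins bind, searched here as TGACNNNGC on both strands in 300 bases of each promoter around the RefSeq gene start (GRCh38.p14). It was found in 9 of 27 NRF2 targets with a promoter in the table, and in 13.6% of all 27305 promoters. Among the targets called higher 3 of 9 held it, and among those called lower 1 of 4. GCLM and PIR are shown because both were called higher and hold a site, read here on the other strand and given in capitals.
GCLM promoter, chr1:93909381-93909680, minus strand: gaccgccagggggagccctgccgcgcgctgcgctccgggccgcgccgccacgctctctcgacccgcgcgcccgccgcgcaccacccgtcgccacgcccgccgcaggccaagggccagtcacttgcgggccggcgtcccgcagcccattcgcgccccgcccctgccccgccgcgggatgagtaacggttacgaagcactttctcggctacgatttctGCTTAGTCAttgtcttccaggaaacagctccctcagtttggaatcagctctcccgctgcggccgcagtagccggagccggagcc
PIR promoter, chrX:15493284-15493583, minus strand: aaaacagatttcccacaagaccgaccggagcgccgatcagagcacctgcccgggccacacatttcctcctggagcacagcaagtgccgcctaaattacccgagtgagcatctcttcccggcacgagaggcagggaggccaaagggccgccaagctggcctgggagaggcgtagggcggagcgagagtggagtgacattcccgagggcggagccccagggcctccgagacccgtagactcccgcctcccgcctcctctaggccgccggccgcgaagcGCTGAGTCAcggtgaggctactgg
A match describes the letters of the window and does not show binding. Words for sterol and TCF factors were searched in the same way. The sterol regulatory element TCACNCCAC was found in 1 of 19 cholesterol synthesis promoters and in 1.15% of all promoters. The TCF word CTTTGAT was found in 1 of 15 promoters of Wnt targets and intestinal stem cell genes, and in 2.64% of all promoters.

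**Figure D4:**
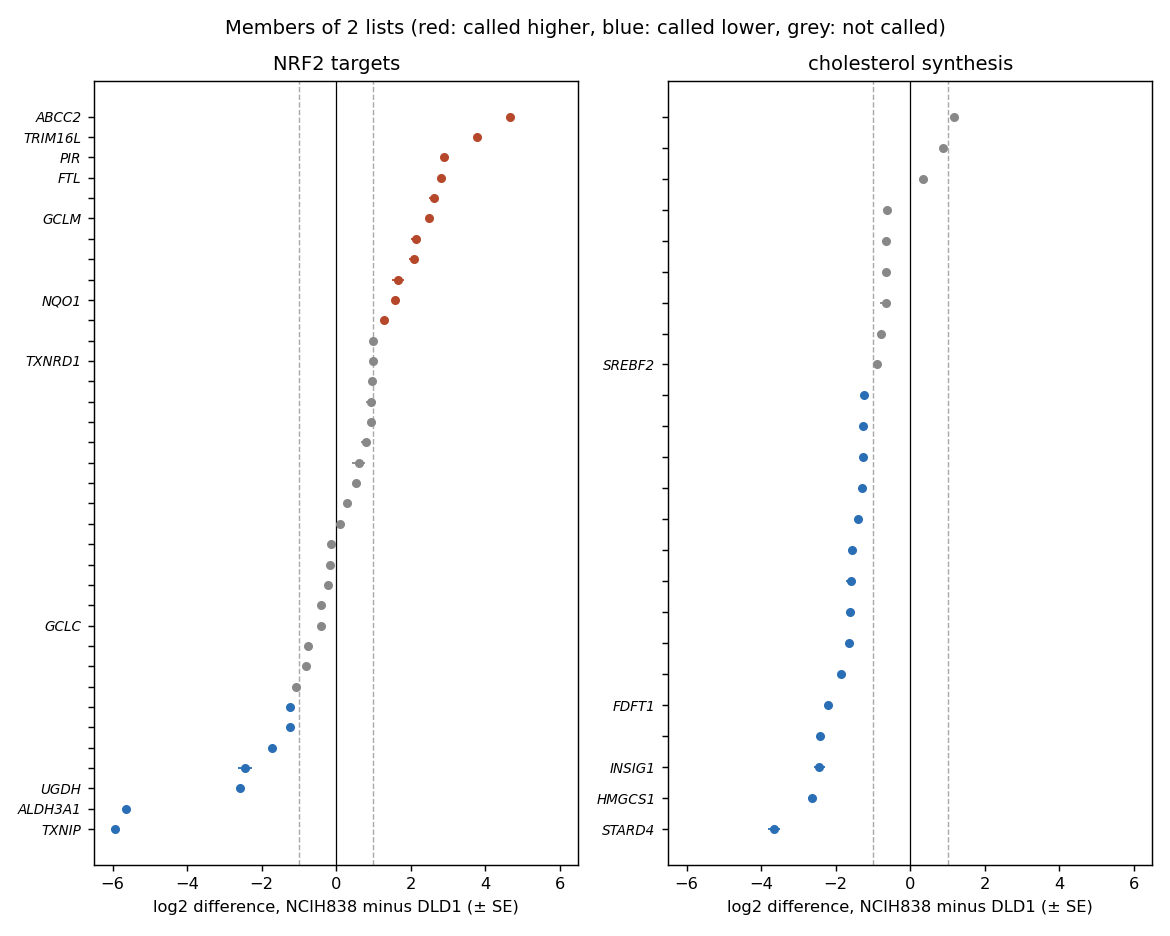
Log2 difference (NCIH838 minus DLD1, ± SE, 3 libraries per line) of the tested NRF2 targets on the left and of the cholesterol synthesis genes on the right, with dashed lines at a 2-fold difference and names for the genes given in the text. NRF2 targets spread from -5.94 (TXNIP) to 4.66 (ABCC2), while 15 of 24 cholesterol genes lie in the called lower range.

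Chromatin and DNA repair genes differed in a few members. SMARCA4, an ATPase of the SWI/SNF chromatin remodelling complex (chromosome 19, 10960825 to 11079426, plus strand, hg38), was at 17.3, 16.5 and 16.9 TPM in NCIH838 CTRL, against 79.2, 84.7 and 94.6 TPM in DLD1 CTRL (5.11-fold lower; log2 difference -2.28 ± 0.07; limma treat, adjusted p = 2.44e-06). The alternative ATPase SMARCA2 was not called, at 11.8 ± 0.46 TPM in NCIH838 and 19.6 ± 0.889 TPM in DLD1. SMARCD2 and SMARCE1 were the other members called lower among 25 tested, with 0 higher, at 50.9 and 0.949 TPM in NCIH838, against 169 and 6.04 TPM in DLD1. MSH6, which recognises mismatched bases, was at 66.5, 65.2 and 68 TPM in NCIH838 CTRL, against 7.34, 7.95 and 7.27 TPM in DLD1 CTRL (8.85-fold higher; log2 difference 2.99 ± 0.05; limma treat, adjusted p = 4.92e-08). Of 17 genes of mismatch repair and DNA methylation, 3 were called higher and 0 lower; the others called were the methyltransferase DNMT3B (32.2 ± 2.53 TPM in NCIH838 and 4.65 ± 0.441 TPM in DLD1) and the demethylation enzyme TET1 (5.65 ± 0.487 TPM in NCIH838 and 0.557 ± 0.0177 TPM in DLD1).

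Most genes of replication and mitosis were not called, and of 19 G1 cyclins and CDK inhibitors 3 were called higher and 2 lower, shares of 15.8% and 10.5% that lie near those of all genes. The CDK inhibitor CDKN1A was called higher, at 59 ± 1.98 TPM in NCIH838 and 18.1 ± 1.75 TPM in DLD1, and the ubiquitin ligase gene MDM2 was not called, at 16 ± 0.239 TPM in NCIH838 and 14.4 ± 0.741 TPM in DLD1. CDKN2A had no read in any of the 6 libraries, and its neighbour CDKN2B was at 0.0445 TPM in NCIH838 and 1.14 TPM in DLD1. MYC was at 36.4, 35.8 and 35.8 TPM in NCIH838 CTRL, against 316, 343 and 386 TPM in DLD1 CTRL (9.68-fold lower), with 3 of 13 members of its network called lower and 0 higher. Cyclin D1, CCND1, averaged 188 ± 6.62 TPM in NCIH838 and 582 ± 25.3 TPM in DLD1 (3.1-fold lower). Replication genes had 7 of 38 members called lower and 0 higher, led by the ribonucleotide reductase subunit RRM1 (137 ± 3.68 TPM in NCIH838 and 396 ± 13.6 TPM in DLD1). Of 32 mitosis genes 1 was called lower and 0 higher: MKI67, the proliferation antigen, averaged 57.5 ± 1.2 TPM in NCIH838 and 206 ± 15.8 TPM in DLD1 (3.57-fold lower). The mitotic kinase PLK1 was at 178 ± 3.64 TPM in NCIH838 and 166 ± 14.2 TPM in DLD1 and was not called.

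Cancer testis antigens are normally silent outside the germ line, a description that does not cover every member of the list used here. Most tested members were high in NCIH838 and close to 0 in DLD1. Of 22 tested members, 19 were called higher and 0 lower, and their median log2 difference was 7.10. MAGEC2 was at 379.9, 366 and 376 TPM in NCIH838 CTRL, against 0.0977, 0 and 0 TPM in DLD1 CTRL. MAGEA4 was at 175, 175 and 171 TPM in NCIH838 CTRL and MAGEA1 at 179, 165 and 186 TPM, both with no read in DLD1 CTRL. Against the floor of 3 reads over the 3 libraries they were at least 2575-fold and 1453-fold higher in NCIH838. PRAME, which lies on chromosome 22 and not on the X, was at 266, 277 and 271 TPM in NCIH838 CTRL, against 0.0515, 0.0519 and 0.123 TPM in DLD1 CTRL (3591-fold higher). It had 4 reads in total in DLD1 CTRL, so this fold is approximate. CTAG2 and CT45A1 averaged 372 ± 31.2 and 270.1 ± 10.2 TPM in NCIH838 and had no read in DLD1, and GAGE2A averaged 172 ± 7.56 TPM in NCIH838 with none in DLD1. MAGEB2 averaged 206 ± 4.9 TPM in NCIH838 and 0.0406 ± 0.0703 TPM in DLD1. CTAG2, CT45A1 and GAGE2A have near-identical neighbours, so the division of reads within each family is uncertain. The oncofetal RNA-binding proteins LIN28B and IGF2BP1 were at 46.7 ± 2.18 and 97.5 ± 2.66 TPM in NCIH838, with 0 reads of LIN28B in DLD1 CTRL and 0.15 ± 0.0215 TPM of IGF2BP1. Members not called were IGF2BP2, MAGED1 and MAGED2, which both lines express: MAGED1 was at 126 ± 11 TPM in NCIH838 and 63.3 ± 6.42 TPM in DLD1.

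MAGEA3 was at 246, 241 and 253 TPM in NCIH838 CTRL, against 0.218, 0.438 and 0 TPM in DLD1 CTRL, and MAGEA6 at 158, 153 and 167 TPM in NCIH838 CTRL, against 0.104, 0 and 0 TPM in DLD1 CTRL. Their promoter windows in RefSeq were identical in 300 of 300 bases, and the genes are near-identical copies, so the division of reads between them is uncertain. The shared sequence is shown with its ETS core CCGGAA in capitals, a word found in 5 of 33 matched cancer testis promoters and in 17.6% of all promoters on either strand. It is the MAGEA3 window, chrX:152698544-152698843 (plus strand), and equally the MAGEA6 window, chrX:152769640-152769939 (minus strand), both GRCh38.p14.
MAGEA3 and MAGEA6 promoter: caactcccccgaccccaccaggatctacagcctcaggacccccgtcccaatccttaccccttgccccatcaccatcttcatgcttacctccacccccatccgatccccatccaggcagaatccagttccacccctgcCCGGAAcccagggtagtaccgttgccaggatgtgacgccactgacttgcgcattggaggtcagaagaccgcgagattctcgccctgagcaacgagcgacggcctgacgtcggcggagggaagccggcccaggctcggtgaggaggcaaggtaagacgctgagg

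Genes of cholesterol synthesis were lower in NCIH838, 15 of 24 tested members, with 0 called higher (median log2 difference -1.27). HMGCS1, which makes HMG-CoA, was at 48.3, 60.2 and 50.9 TPM in NCIH838 CTRL, against 343, 361 and 307 TPM in DLD1 CTRL (6.34-fold lower; log2 difference -2.64 ± 0.10; limma treat, adjusted p = 3.3e-06). FDFT1, squalene synthase, averaged 76.4 ± 7.95 TPM in NCIH838 and 359 ± 8.28 TPM in DLD1 (4.7-fold lower). The sterol sensor INSIG1 averaged 42.6 ± 9.39 TPM in NCIH838 and 232 ± 12 TPM in DLD1, and the sterol carrier STARD4 2.19 ± 0.463 TPM in NCIH838 and 39.2 ± 7.06 TPM in DLD1 (17.9-fold lower). The regulator SREBF2 was at 103 ± 13.4 TPM in NCIH838 and 193 ± 14 TPM in DLD1 and was not called.

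Fatty acid genes were called in both directions. FASN, fatty acid synthase, was at 139, 175 and 148 TPM in NCIH838 CTRL, against 609.6, 609.7 and 763 TPM in DLD1 CTRL (4.29-fold lower), and ACACA, which supplies its malonyl units, averaged 22.2 ± 1.83 TPM in NCIH838 and 78.2 ± 4.38 TPM in DLD1 (3.53-fold lower). ELOVL5, an elongase of polyunsaturated chains, was at 219, 231 and 245 TPM in NCIH838 CTRL, against 0.051, 0.103 and 0.122 TPM in DLD1 CTRL, so that DLD1 lay at the limit of detection (2518-fold higher in NCIH838; log2 difference 7.73 ± 0.06; limma treat, adjusted p = 9.86e-10). FADS1 and FADS2, the desaturases of the same route, averaged 134 ± 7.89 and 85.9 ± 8.94 TPM in NCIH838, against 2.62 ± 0.102 and 7.19 ± 0.73 TPM in DLD1. Their annotated spans overlap on opposite strands, so the division of reads is uncertain here too. A second elongase, ELOVL2, had no read in DLD1 CTRL and averaged 32 ± 1.09 TPM in NCIH838. In total 4 of 17 tested members were called higher and 5 lower.

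In the sphingolipid pathway, which the study targeted through KDSR, the shares of called genes lay near those of all genes in the higher direction and somewhat above them in the lower one, and single members were far apart. KDSR, the ketoreductase after serine palmitoyltransferase, was at 11.9, 13.7 and 14.7 TPM in NCIH838 CTRL and 29.7, 32.2 and 27.2 TPM in DLD1 CTRL. The ranges did not overlap, the fold was 2.21 lower, and the gene was not called (log2 difference -1.09 ± 0.09; limma treat, adjusted p = 0.56). Of 16 tested genes of de novo synthesis 2 were called higher (12.5%) and 3 lower (18.8%), with a median log2 difference of 0.08. DEGS1, which makes ceramide from dihydroceramide, averaged 263 ± 9.96 TPM in NCIH838 and 47.7 ± 4.57 TPM in DLD1 (5.52-fold higher), and the ceramide synthase CERS4 3.9 ± 0.482 TPM in NCIH838 and 0.0321 ± 0.0278 TPM in DLD1. The serine palmitoyltransferase subunits SPTLC3 and SPTSSB were called lower, at 3.28 ± 0.534 and 0 ± 0 TPM in NCIH838, against 17.9 ± 0.902 and 14.7 ± 1.08 TPM in DLD1. Among 39 tested genes of turnover and signalling, 7 were called higher (17.9%) and 8 lower (20.5%), with a median log2 difference of 0.11. Receptors of sphingosine 1-phosphate included 3 called higher: S1PR1 had no read in DLD1 CTRL and averaged 12.5 ± 1.12 TPM in NCIH838, S1PR5 was at 20.6 ± 2.17 TPM in NCIH838 and 1.03 ± 0.321 TPM in DLD1, and S1PR3 at 3.91 ± 0.376 TPM in NCIH838 and 0.00481 ± 0.00833 TPM in DLD1. S1PR2 was not called, at 4.54 ± 0.383 TPM in NCIH838 and 6.73 ± 0.322 TPM in DLD1. The exporter of that lipid, SPNS2, was called lower, at 0.874 ± 0.169 TPM in NCIH838 and 18.3 ± 1.86 TPM in DLD1. For glycolipids, A4GALT, of globoside synthesis, and B4GALNT1, of ganglioside synthesis, were at 19.3 ± 1.81 and 38.3 ± 0.838 TPM in NCIH838, with 0 and 4 reads in DLD1 CTRL. UGT8, of galactosylceramide synthesis, had no read in NCIH838 and averaged 29.8 ± 2.32 TPM in DLD1.

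Innate immune genes differed by branch. Of 27 tested interferon response genes, 12 were called lower and 3 higher. OAS3 and OAS1, sensors of double-stranded RNA, averaged 0.229 ± 0.053 and 0.123 ± 0.0222 TPM in NCIH838, against 141 ± 8.22 and 31.7 ± 1.93 TPM in DLD1. IRF7, an interferon regulatory factor, was at 0.137, 0.21 and 0.14 TPM in NCIH838 CTRL, against 47.1, 48.7 and 52.8 TPM in DLD1 CTRL (305-fold lower). Its fold rests on 7 reads in NCIH838 CTRL and is approximate. The guanylate-binding proteins GBP2 and GBP1 were called higher, at 41 ± 4.49 and 7.32 ± 1.5 TPM in NCIH838, against 0.0311 ± 0.0312 and 0 ± 0 TPM in DLD1, and the antiviral membrane protein IFITM3 was not called (630.4 ± 60.2 TPM in NCIH838 and 1229 ± 96.4 TPM in DLD1). For antigen presentation, 9 of 18 tested genes were called lower and 2 higher. The class I heavy chains HLA-C and HLA-B averaged 28.5 ± 1.5 and 2.66 ± 0.307 TPM in NCIH838, against 429.5 ± 26.9 and 19.7 ± 2.48 TPM in DLD1. HLA genes vary between people and resemble each other, so alignment to a single reference can lose or move reads. The annotated spans of HLA-C and HLA-B also overlap on the same strand, so the division of reads between them is uncertain. B2M, the light chain of class I molecules (chromosome 15, 44711487 to 44718877, plus strand, hg38), went the other way, at 329.5, 345 and 337 TPM in NCIH838 CTRL, against 49.4, 47.4 and 42.8 TPM in DLD1 CTRL (7.25-fold higher; log2 difference 2.83 ± 0.06; limma treat, adjusted p = 1.3e-07). The immunoproteasome subunit PSMB8 averaged 7.62 ± 0.719 TPM in NCIH838 and 51.3 ± 1.04 TPM in DLD1, and the peptide transporter TAP1 13.5 ± 1.76 TPM in NCIH838 and 36.9 ± 1.46 TPM in DLD1. Cytokine and NF-kB genes had 11 of 30 members called higher and 6 lower. IL6 and CCL2 averaged 27.1 ± 1.26 and 47 ± 1.93 TPM in NCIH838, with 0 reads and 1 read in DLD1 CTRL, and the adhesion receptor ICAM1 was at 173 ± 6.58 TPM in NCIH838 and 28.5 ± 1.82 TPM in DLD1. IL33, an alarm cytokine of barrier epithelia, had no read in NCIH838 and averaged 57.2 ± 7.22 TPM in DLD1.

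Few genes of respiration were called, and stress and carbon pathways held single genes far apart. Of 50 nuclear-encoded subunits of the respiratory complexes, 0 were called higher and 1 lower, and of 13 mitochondrially encoded genes none was called, although their median log2 difference was 0.55. In glycolysis and hypoxia 7 of 32 were called higher and 2 lower. BNIP3, a mitophagy receptor induced by hypoxia, was at 62.8, 63 and 66.1 TPM in NCIH838 CTRL, against 1.21, 1.1 and 1.14 TPM in DLD1 CTRL (55.7-fold higher). The glucose transporters differed in direction: SLC2A3 averaged 121 ± 4.66 TPM in NCIH838 and 13.7 ± 1.41 TPM in DLD1 (8.84-fold higher), and SLC2A1 131 ± 3.89 TPM in NCIH838 and 306 ± 18.9 TPM in DLD1 (2.34-fold lower). Serine, one-carbon and asparagine genes had 2 of 19 called higher and 1 lower. The folate enzymes ALDH1L2 of mitochondria and SHMT1 of the cytosol went opposite ways: ALDH1L2 averaged 36.9 ± 3.98 TPM in NCIH838 and 0.311 ± 0.206 TPM in DLD1, and SHMT1 31.8 ± 2.68 TPM in NCIH838 and 78.2 ± 2.13 TPM in DLD1. Metallothioneins, which bind zinc and copper, differed member by member within their cluster on chromosome 16. MT1E was at 0, 0 and 0.175 TPM in NCIH838 CTRL, against 277, 283 and 247 TPM in DLD1 CTRL, and MT1A at 81.1, 108 and 87.5 TPM in NCIH838 CTRL with no read in DLD1 CTRL. The genes of this cluster resemble each other, so reads may be divided between them. MT2A was not called, at 374 ± 24.3 TPM in NCIH838 and 401 ± 26.7 TPM in DLD1. Aldehyde dehydrogenases had 2 of 16 members called higher and 6 lower, among them the mitochondrial ALDH1B1 (53.5 ± 1.49 TPM in NCIH838 and 254 ± 17.4 TPM in DLD1). The unfolded protein response had 5 of 29 called lower and 0 higher, with the main chaperone HSPA5 not called (539 ± 8.32 TPM in NCIH838 and 857 ± 49.6 TPM in DLD1). ERN2, the stress sensor of gut epithelium, had no read in NCIH838 and averaged 46.4 ± 3.08 TPM in DLD1. Heat shock genes had 4 of 24 called higher and 3 lower. HSPB8, a small heat shock protein, averaged 56.4 ± 1.4 TPM in NCIH838 and 0.0228 ± 0.0396 TPM in DLD1, and HSPA8, the constitutive HSP70, was not called (2163 ± 81.3 TPM in NCIH838 and 3408 ± 48.9 TPM in DLD1).

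**Figure D5:**
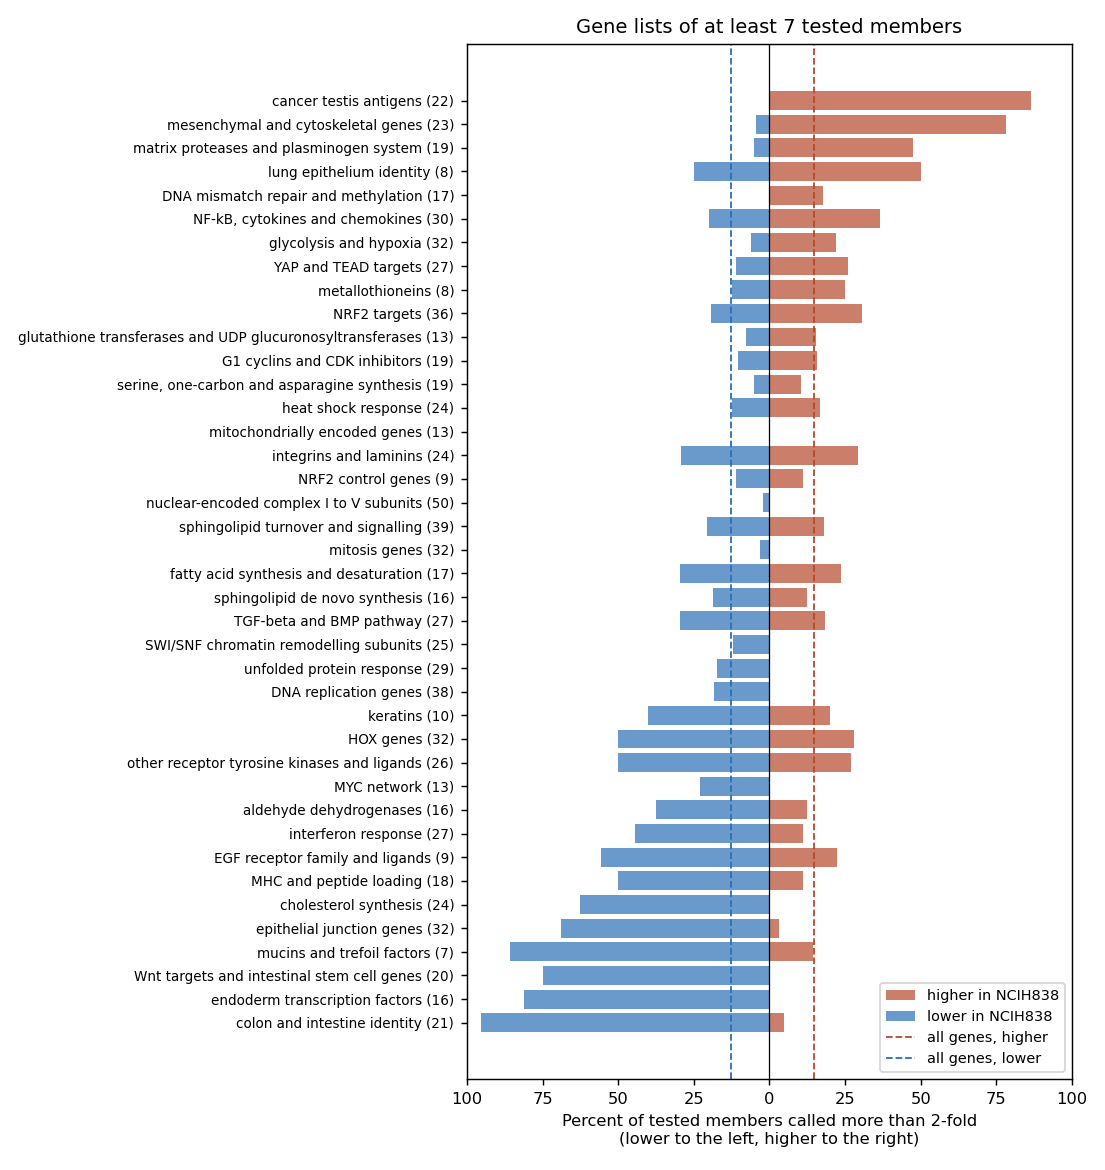
Percent of tested members called more than 2-fold higher (right, red) or lower (left, blue) in NCIH838 than in DLD1 for lists of at least 7 tested members (1 list not shown), with the number tested in brackets and dashed lines at the shares over all genes (14.9% higher, 12.7% lower). Cancer testis antigens and mesenchymal genes extend farthest to the right, and colon identity, mucins and endodermal factors farthest to the left, while complex I to V subunits and mitosis genes stay inside the dashed lines.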

How the data were processed

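RNA-seq was run on 18 libraries, and the 3 NCIH838 CTRL and 3 DLD1 CTRL libraries were compared. The authors deposited a table of TPM for 27166 genes with Ensembl identifiers and gene lengths. Per the submitters' processing notes, the build was hg38 and featureCounts 2.0.0 counted reads; the aligner, strand setting and handling of reads shared between genes are not given in the sources used here. Genes matched GENCODE release 29 by identifier and name, and coordinates are hg38. TPM times length, divided by what 1 read is worth in that library, gave whole reads (within 0.01 read) for 100% of values above 0, so the depth per library is known. Genes averaging 1 TPM or more were fitted in R 4.3.3 with limma 3.58.1 on log2(TPM + 1) (trended, robust empirical Bayes, group means). The treat test at a log2 difference of 1 gave the calls. The fit was also run on simulated data in which far fewer genes changed than differ here. That run cannot show how the calls behave when most genes differ. Floors for genes with no read are 3 reads over the 3 libraries of a line and cover counting error only. Replicate libraries of a line differed by more than sampling noise (chi-square per degree of freedom 2.84 to 9.40). The members and gene lists were chosen with earlier results of these data known. Named were the 20 largest differences in each direction among called genes of at least 20 TPM in the higher line, up to 6 called members per direction of each list, all marker genes, and a set of known driver genes; a few genes that this rule names are not reported here, and other genes, the list members not called among them, were chosen after their values were seen. Alternatives were another pseudocount, filter, scaling, test and library set.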

Additional observations from a re-analysis of the deposited data

Results flagged for a closer look

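For 46 of the 16982 genes the line difference in the KDSR KO libraries differed from that in the CTRL libraries by more than 2-fold (limma treat on the interaction, adjusted p under 0.05), and 5 genes named in the text were among them. IL6 had a log2 difference between NCIH838 and DLD1 of 7.29 in KDSR KO and 4.81 in CTRL, an interaction of 2.47 (limma treat, adjusted p = 3.07e-05). The metallothionein MT2A was at 1.62 in KDSR KO and -0.10 in CTRL, an interaction of 1.72 (adjusted p = 0.0021). HSPB8 was at 7.42 in KDSR KO and 5.81 in CTRL, an interaction of 1.61 (adjusted p = 0.00443). MYC was at -1.81 in KDSR KO and -3.23 in CTRL, an interaction of 1.43 (adjusted p = 0.0414). PEG10 was at 6.13 in KDSR KO and 7.95 in CTRL, an interaction of -1.82 (adjusted p = 0.018).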

How the results depend on the processing

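The 3 numbered libraries of the lines did not pair: deviations from the group means correlated at 0.13, -0.03 and -0.02 between same-numbered libraries. With the replicate number as a block, 2517 genes were called more than 2-fold higher and 2114 lower in NCIH838, and 6250 higher and 6871 lower at any size. Leaving out each library in turn gave 2384 to 2481 called higher and 2030 to 2095 lower by the 2-fold rule, and 5989 to 6285 higher and 6618 to 6956 lower at any size. Without NCIH838 library 1 the counts were 2420 higher and 2041 lower by the 2-fold rule, and 6092 higher and 6618 lower at any size. A filter at 5 TPM lowered the calls upward to 1577, a setting that tests fewer genes. All other counts stayed within 1.5 times. Median ratio scaling moved the median of all genes to 0.07, against -0.05 as reported, and gave 2775 higher and 1909 lower calls. NFE2L2 changed sign under median ratio scaling (0.0627), quantile normalization (0.00848), without mitochondrial and rRNA genes (0.0202), in the KDSR KO libraries (0.0947) and with voom on recovered reads (0.0327), and MT2A under median ratio scaling (0.0354), in the KDSR KO libraries (1.62) and with voom (0.00652); the cause was not tested. List medians changed sign in up to 6 of 44 lists, the most between the KDSR KO libraries, where the NRF2 targets (-0.04, against 0.57 as reported) were among them. The sizes of list medians depend on the setting: 43 of 44 moved under at least 1 setting, by up to 2.97 with a pseudocount of 0.1, 3.13 with the 5 TPM filter and 4.04 with voom, where the cancer testis median was 11.1 and the colon median -7.07. The list of mitochondrially encoded genes has no value where those genes were left out. Under median ratio scaling SLC2A1 and SHMT1 lost their calls and HOXB2 and TXNRD1 gained one; SLC2A1 was not called with voom either (-1.12; limma treat, adjusted p = 0.051). Depth limits genes near 0, where the log2 difference understates the fold.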

Other observations

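Some gene families outside the lists, chosen after their values were seen, also divided by line. Of 17 tested collagens, 10 were called higher in NCIH838 and 1 lower, with COL12A1, of fibrillar networks, at 50.3 ± 0.885 TPM in NCIH838 and 0.0428 ± 0.0316 TPM in DLD1, and COL7A1, of anchoring fibrils, at 55.5 ± 11.7 TPM in NCIH838 and 1.24 ± 0.211 TPM in DLD1. Of 13 tested S100 genes, 7 were called higher and 1 lower, with S100A9 at 59.5 ± 2.69 TPM in NCIH838 and no read in DLD1. All 5 tested kallikrein-related peptidases were called lower, KLK6 with no read in NCIH838 and 134 ± 6.77 TPM in DLD1. Zinc finger genes named ZNF on chromosome 19 had 41 of 180 called higher (22.8%) and 18 lower (10%), against 17 of 217 higher (7.83%) and 23 lower (10.6%) for those elsewhere; ZNF134 averaged 32.9 ± 0.38 TPM in NCIH838 and had no read in DLD1. The imprinted RNA H19 averaged 1.27 ± 0.397 TPM in NCIH838 and 229.5 ± 20.8 TPM in DLD1.

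Differences also ran along chromosomes. Over 151 windows of 20 Mb with at least 15 genes (8889 genes, median log2 difference -0.13), the highest median was 1.62 at 20 to 40 Mb of chromosome 12, where 33 of 34 genes were above 0. The lowest medians were -1.43 at 180 to 200 Mb of chromosome 4 and -1.29 at 100 to 120 Mb of chromosome 13. Next was -1.22 at 60 to 80 Mb of chromosome 18, where 0 of 17 such genes were above 0. Neighbours here are successive tested protein-coding genes, with the untested and noncoding genes between them passed over. Runs of at least 4 such genes called the same way numbered 30 higher and 36 lower. A run of 7 neighbouring genes called lower on chromosome 9 ended at MTAP, with no read in NCIH838 and 20.8 ± 2.21 TPM in DLD1. The same run held KLHL9, with 1 read in NCIH838 and 40.8 ± 1.19 TPM in DLD1. The longest run of neighbours called higher held 11 genes on chromosome X, among them MAGEA4, MAGEA3 and MAGEA6, and the longest run called lower held 10 genes on chromosome 11, among them ASCL2. DNA copy number was not measured here.

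In NCIH838 CTRL library 1, ALB was at 3.10 TPM and AFP at 3.16 TPM, and 7 of 7 genes of the HUH7 trace were highest there, at a median of 0.0532% of their HUH7 level.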
